A study of Mus musculus with 6 samples.

Results

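Immediate early transcription factors and their companions were followed as a set of 10 genes, Fos, Fosb, Jun, Junb, Jund, Egr1, Atf3, Ier2, Ier3 and Zfp36, chosen by symbol from the 32285 genes of the count matrices. All 10 were present under exactly 1 identifier each. Non-cardiomyocytes were freed by enzymes at 37 °C from ventricles of male mice aged 8 to 12 weeks, sorted as live cells and read by 10x 3' single-cell RNA sequencing. The WT mice were C57BL/6JRj and the KO mice were B6.Cg-Trpm4tm1.2-PG, which lack a working Trpm4 ion channel. Either genotype had a SHAM operation with sampling at 24 h, or ligation of the left anterior descending (LAD) coronary artery with sampling at 24 h or 72 h. Every one of the 6 groups was 1 library made from the pooled cells of 4 mice, and all groups had an operation and the same digestion, so no unoperated or undigested heart is among them.

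Immediate early genes are transcribed within minutes of a stimulus without new protein synthesis, mostly through serum response factor, its ternary complex partners and CREB acting on promoters that are already open. FOS and JUN proteins pair into the dimer AP-1, EGR1 binds GC-rich sites, ATF3 acts mainly as a stress-induced repressor, and ZFP36 (tristetraprolin) is no transcription factor but shortens the life of messages with AU-rich elements. In the heart they are known to respond to ischaemia, stretch and cytokines. Digestion of tissue at body temperature is also known to induce them.

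With 1 library a group there is no replicate check of any difference below. No test was made. Levels are given as CPM, a gene's molecules (UMIs) summed over the cells of a class in a library, divided by all UMIs of that class and library and scaled to one common total (the usual CPM unit). Brackets give exact Poisson 95% intervals, which cover counting error only and not the spread between mice, operations or digestions. A member was called higher or lower where its CPM differed at least 2-fold with at least 50 UMIs over the pair of libraries. Cells were put into classes by clustering without the members, and 4 classes with at least 100 cells in all 6 libraries are compared: endothelial, fibroblast, monocyte/macrophage and neutrophil, which gives 40 pairs of member and class. All 13 endothelial, 13 fibroblast, 26 monocyte/macrophage and 13 neutrophil markers were detected in their own class in every library.

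The libraries kept 3362 to 6821 cells, with a median of 3062 to 8009.5 UMIs a cell in 5 of them. The KO ligation 72 h library stood apart with a median of 1354 UMIs. Its fibroblasts had a median of 1088 UMIs against 10835.5 in WT at that time, and its endothelial cells 1168.5 against 2919. Pairs of libraries shared between 3 and 14 barcodes. Trpm4 was counted at 8.56, 5.50 and 4.18 CPM in the WT sham 24 h, ligation 24 h and ligation 72 h libraries and at 5.99, 3.38 and 2.51 CPM in the KO libraries of the same conditions, and 3' reads do not read a deletion elsewhere in the gene, so this checks no label.

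Promoters are shown for 4 members on which the results below turn: Fos and Zfp36, which were high together in endothelial cells and fibroblasts of KO ligation 72 h, Fosb, which was low in KO at ligation 24 h, and Ier3, which was at least 2-fold higher at ligation 24 h than in sham in all 4 WT classes as counted. Each is the 250 bases before the RefSeq start on GRCm38.p6, on the gene's own strand, with matches to the searched motifs in capitals. Fos lies at chr12:85473640-85473889 (+), Zfp36 at chr7:28379229-28379478 (-), Fosb at chr7:19310046-19310295 (-) and Ier3 at chr17:35821463-35821712 (+).
Fos: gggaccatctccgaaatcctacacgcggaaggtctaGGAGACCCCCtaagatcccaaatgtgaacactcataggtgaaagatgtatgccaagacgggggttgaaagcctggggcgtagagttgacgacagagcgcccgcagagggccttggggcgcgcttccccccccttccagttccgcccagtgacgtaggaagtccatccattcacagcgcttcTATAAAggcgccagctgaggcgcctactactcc
Zfp36: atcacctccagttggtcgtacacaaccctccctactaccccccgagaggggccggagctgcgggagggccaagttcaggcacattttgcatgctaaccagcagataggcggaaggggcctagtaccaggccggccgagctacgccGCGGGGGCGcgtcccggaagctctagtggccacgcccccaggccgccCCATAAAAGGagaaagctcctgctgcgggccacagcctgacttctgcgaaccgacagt
Fosb: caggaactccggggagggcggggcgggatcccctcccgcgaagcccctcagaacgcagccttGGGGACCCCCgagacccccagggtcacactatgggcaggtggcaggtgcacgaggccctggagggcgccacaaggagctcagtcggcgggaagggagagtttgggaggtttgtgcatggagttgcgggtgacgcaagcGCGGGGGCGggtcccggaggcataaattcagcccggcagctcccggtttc
Ier3: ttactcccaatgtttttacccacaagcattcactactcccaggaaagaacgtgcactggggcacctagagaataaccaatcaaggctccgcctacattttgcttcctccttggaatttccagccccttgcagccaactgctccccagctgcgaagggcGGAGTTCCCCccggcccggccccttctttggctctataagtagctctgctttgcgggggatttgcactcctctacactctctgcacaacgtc

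Both strands were searched for 6 motifs over 32851 promoters of that length, 8 of them taken for members (all but Egr1 and Ier2). Windows on chromosome 18, which holds Egr1, were not taken for members. The RefSeq window of Jund lies wholly upstream of the gene model used for counting and may not be the promoter of the counted transcript. The windows of Zfp36 and Atf3 lie wholly inside their gene models, which begin farther upstream, and the same limit holds for them. The capitals mark a TATA box (TATAAA) and an NF-kB site in Fos, an EGR site (GCGNGGGCG) and a CArG box, the letters that serum response factor binds, in Zfp36, an NF-kB site and an EGR site in Fosb, and an NF-kB site in Ier3. The CArG box of Zfp36 began 58 bases before the start. Of all promoters 12.4% held a TATA box, 3.9% an NF-kB site, 4.7% an EGR site and 1.47% a CArG box. A cyclic AMP response element (CRE, TGACGTCA) was in 1.55% of promoters and an AP-1 site (TGANTCA) in 6.75%, and in 0 of the 8 members. Only these letters were searched, so a CRE that differs from them was not counted. The printed Fos window holds tgacgt, the first letters of the CRE. These are matches of letters in a short window and say nothing of sites farther away.

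Neutrophils had the highest level of every member in all 6 libraries among classes with at least 100 cells. For 8 members the interval of the neutrophils lay clear of the next class in every library. The exceptions were Atf3 and Jund, whose intervals met those of the next class in both ligation 24 h libraries. Fos, the AP-1 subunit for which the family is named, ranged from 1349 to 2610 CPM in neutrophils (median over the libraries 2059), from 663 to 1284 in monocyte/macrophage cells, from 60 to 325 in fibroblasts and from 12.8 to 224 in endothelial cells. The member sum followed the order neutrophil, monocyte/macrophage, fibroblast, endothelial in all 6 libraries, and only the last pair met within their intervals, at KO ligation 24 h. The plot of levels by library shows this order gene by gene.

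**Figure D1:**
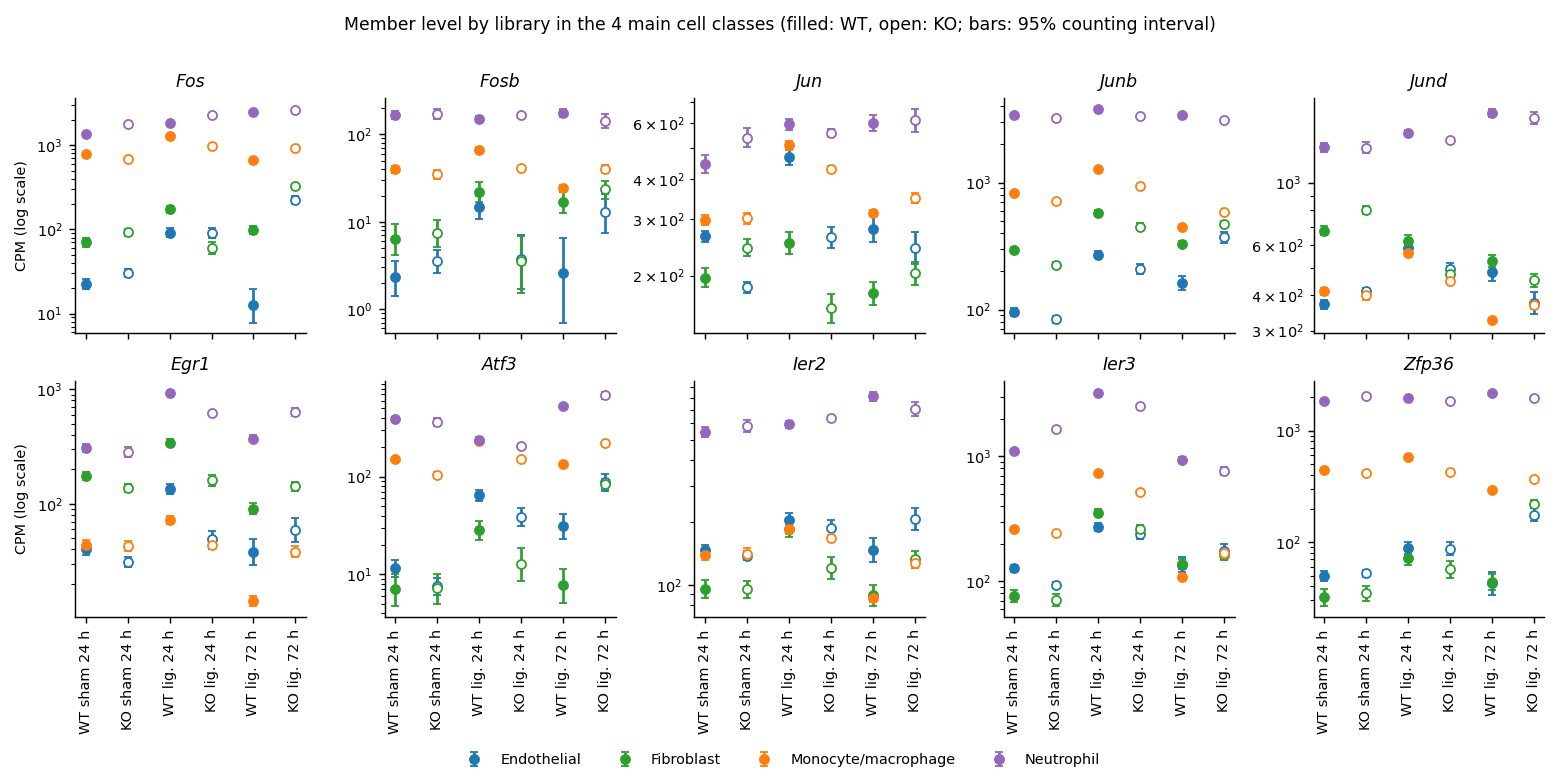
Level of each of the 10 genes in CPM (log scale) for the 6 libraries, by cell class (colour); filled circles are WT, open circles KO, and bars are 95% counting intervals. Neutrophils lie at the top of every panel, and the endothelial values of Fos spread widest, from 12.8 to 224 CPM.

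Per cell, after thinning every cell to 1000 UMIs, neutrophils carried a median of 10 to 14 member UMIs and 89.7% to 95.2% of them held 3 or more different members. Of endothelial cells 5.31% to 22.2% held 3 or more, of fibroblasts 10.3% to 32.1%, and of monocyte/macrophage cells 31.2% to 63.0%. The highest shares stood in KO ligation 72 h for endothelial cells and fibroblasts and in WT ligation 24 h for monocyte/macrophage cells. Thinning left out 264 of 664 endothelial cells and 560 of 1271 fibroblasts of KO ligation 72 h, and at most 83 and 8 in the other libraries.

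**Figure D2:**
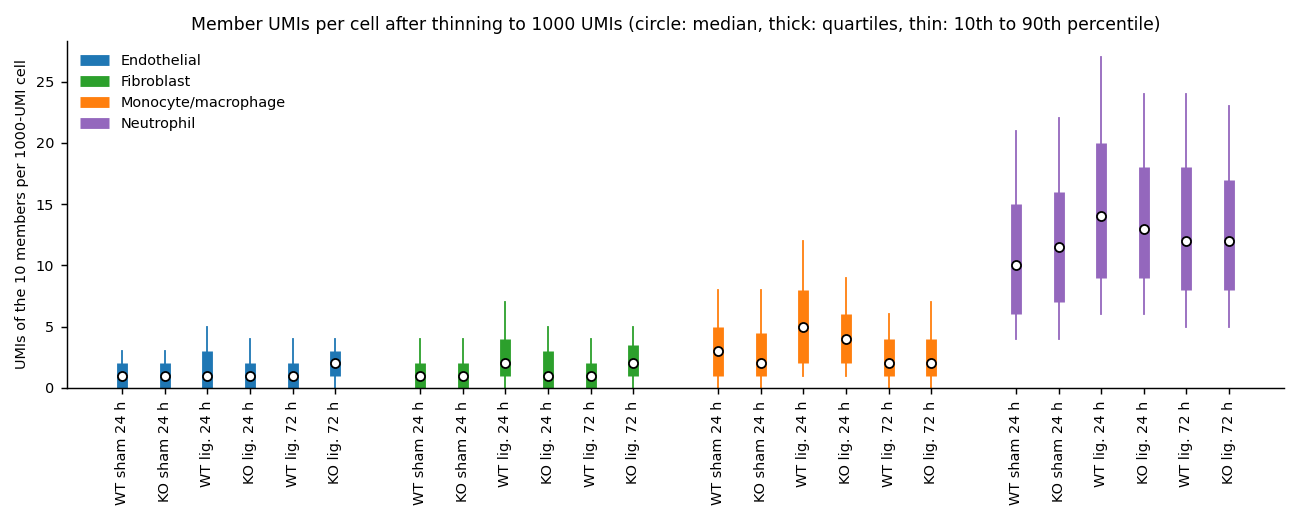
UMIs of the 10 genes per cell after thinning to 1000 UMIs, by class and library; circles are medians, thick bars quartiles and thin bars the 10th to 90th percentile. Neutrophils had medians of 10 to 14, and monocyte/macrophage cells of WT ligation 24 h had a median of 5.

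After ligation, the members were higher at 24 h than in sham hearts, most of all in WT endothelial cells and fibroblasts. In WT, 14 of 40 pairs were at least 2-fold higher and 0 lower, where 3.87% and 4.46% of all genes tested in these classes passed. In KO, 8 of 39 measured pairs were higher and 0 lower, against 3.29% and 5.67% of all genes. The WT median over the 10 members was 1.30 on the log2 scale in endothelial cells, 1.08 in fibroblasts, 0.67 in monocyte/macrophage cells and 0.15 in neutrophils, and the median of all genes was 0.03, -0.05, -0.12 and -0.23. In KO the medians were 0.69, 0.34, 0.33 and 0.07.

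Among the AP-1 subunits, Fos in endothelial cells was at 22.6 CPM in WT sham [19.6 to 26.1], 30.5 in KO sham, 91.5 in WT ligation 24 h [81.2 to 102.8] and 90.5 in KO ligation 24 h. Both ligation libraries lay above both sham libraries. The log2 ratio was 2.02 [1.75 to 2.28] in WT and 1.57 [1.32 to 1.81] in KO. S100a8 and S100a9, neutrophil messages, were at 359 CPM in KO sham and 3702 in KO ligation 24 h endothelial cells, and with that share of neutrophil RNA subtracted the KO ratio of Fos was 0.56. In cells with at most 10% mitochondrial UMIs it was 0.99 in WT and 0.39 in KO, so both calls ended. The median mitochondrial share of endothelial cells was 10.2% and 10.5% in WT and KO sham and 6.37% and 7.34% at ligation 24 h. This cut thus left out a larger part of the sham cells. At ligation 72 h the medians were 6.89% in WT and 2.34% in KO. In fibroblasts Fos split by genotype, with 70.0 and 173 CPM in WT sham and ligation and 92.8 and 60.0 CPM in KO, which gave log2 ratios of 1.31 (0.89 without doublet removal) and -0.63. Fosb, a close relative of Fos, had few counts: in endothelial cells 20 UMIs in WT sham and 46 in WT ligation 24 h (2.31 and 14.7 CPM, log2 ratio 2.67 [1.89 to 3.51]) and 44 and 9 UMIs in KO (3.54 and 3.70 CPM). It was not measured in KO fibroblasts, where 33 and 8 UMIs stayed under the minimum.

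Junb, the JUN-family subunit that often damps AP-1 driven growth, had log2 ratios of 1.49 in WT and 1.32 in KO endothelial cells. The KO value was 0.83 with neutrophil RNA subtracted, and both were under 2-fold in cells with at most 10% mitochondrial UMIs (0.95 and 0.73). In fibroblasts its ratios were 0.97 in WT, under the threshold, and 1.01 in KO, at the threshold and under it in 7 alternatives. Jun itself was under 2-fold in every class. Jund, which is known for steady expression, had ratios from -0.12 in fibroblasts to 0.66 in endothelial cells of WT and from -0.74 to 0.26 in those classes of KO.

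Egr1, a zinc finger factor induced by growth and stretch signals, stood in neutrophils at 308 and 285 CPM in WT and KO sham and at 920 and 626 CPM in WT and KO ligation 24 h. The neutrophil log2 ratios were 1.58 [1.46 to 1.70] and 1.14 [0.99 to 1.28]. In endothelial cells Egr1 measured 40.0 and 135 CPM in WT (log2 ratio 1.76) and 31.2 and 48.9 in KO (0.65). Of the 422 Egr1 UMIs of WT ligation 24 h endothelial cells, 23.0% came from 1 barcode. Atf3 was higher in endothelial cells of both genotypes (log2 ratio 2.48 [2.12 to 2.84] in WT, 2.37 [1.94 to 2.80] in KO) and in WT fibroblasts (7.09 and 28.3 CPM), and under 2-fold lower in neutrophils (-0.70 and -0.83).

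Ier3, an early gene that guards against cell death, measured 1102 and 3223 CPM in WT neutrophils of sham and ligation, 263 and 737 in monocyte/macrophage cells, 76.8 and 353 in fibroblasts and 127 and 271 in endothelial cells. All 4 WT ratios passed 2-fold as counted, with log2 values of 1.55, 1.49, 2.20 and 1.10, and in KO 3 of them did, with 0.61, 1.11, 1.87 and 1.36. In WT ligation 24 h endothelial cells 25.9% of the Ier3 UMIs came from 1 barcode, and with the highest barcode of each library left out that ratio was 0.68, so the call ended. Ier2 stayed under 2-fold in every class, and Zfp36 passed it in WT fibroblasts alone among the 8 values, at 32.0 and 72.5 CPM (log2 ratio 1.18, and 0.73 without doublet removal).

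**Figure D3:**
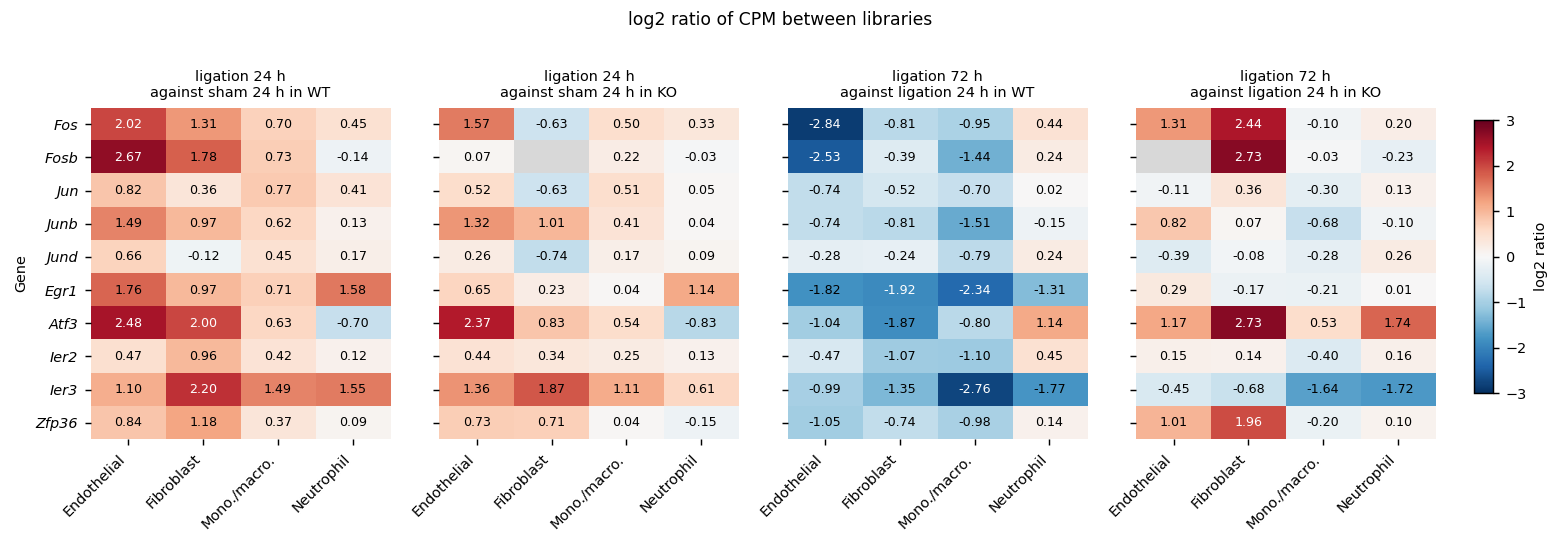
log2 ratios of CPM for each gene (rows) and class (columns) between ligation 24 h and sham, and between ligation 72 h and ligation 24 h, in WT and KO; red is higher at the later or ligated state, blue lower, grey under 50 UMIs. The WT panel of 72 h against 24 h is blue in 3 classes, with Fos in endothelial cells at -2.84, and the KO panel holds Fos in fibroblasts at 2.44.

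Within clusters the difference varied. In an endothelial cluster led by Pgf, Vwa1 and Mest the summed members were at 1325 CPM in WT sham and 3720 in WT ligation 24 h, with all 9 measured members above 0 on the log2 scale and a median of 1.68. In KO it stood at 1211 CPM in sham and 2018 in ligation 24 h, with a median of 0.89. Single barcodes were not left out within clusters. In the endothelial cluster led by Aqp1, Timp4 and Fmo1 the medians were 0.63 in WT and 0.15 in KO, where 5 of 8 measured members lay above 0. In a monocyte/macrophage cluster led by Ccl24, Arg1 and Ccl9 they were 0.32 in WT and -0.05 in KO, with 9 and 5 of 10 members above 0. A fibroblast cluster led by Clec3b and Dpep1 had 1.34 in WT and 0.66 in KO. In 59 WT cells of a fibroblast cluster led by Cxcl5 and Cxcl1 that was found at ligation 24 h, Ier3 reached 665 CPM, against 92.7 in the Clec3b cluster of that library.

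Heat shock genes, which also respond to handling of tissue, were read beside the members. From sham to ligation at 24 h their median log2 ratio over the measured genes of 11 was 0.91, 0.70, 0.36 and -0.49 in WT endothelial, fibroblast, monocyte/macrophage and neutrophil cells, and -0.08, 0.24, -0.48 and -0.64 in KO. In WT the heat shock medians were thus above 0, like those of the members, in 3 classes, and in KO in fibroblasts. In KO endothelial and monocyte/macrophage cells and in neutrophils of either genotype they were below 0. Single heat shock genes ranged from 0.21 to 5.81 in WT endothelial cells and from 0.19 to 2.14 in WT fibroblasts. The ranges were -0.21 to 0.81 and -1.28 to 0.17 in WT monocyte/macrophage cells and neutrophils. In KO they were -0.45 to 0.57, -0.29 to 1.07, -2.5 to -0.14 and -1.59 to 0.20 in the same order of classes. In KO sham the heat shock medians already stood 0.86 and 0.64 above WT sham in endothelial and monocyte/macrophage cells. The part of the heat shock genes in the result was not tested.

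From 24 h to 72 h after ligation the members were lower in WT. There 16 of 40 pairs were at least 2-fold lower and 1 higher, where 9.6% and 12.2% of all genes tested passed. In KO 2 of 39 measured pairs were lower and 8 higher, against 5.74% and 12.7%. The 8 became 4 with a UMI minimum for each class and 5 without doublet removal or with neutrophil RNA subtracted, and the endothelial calls of Fos, Atf3 and Zfp36 ended in each of these. The WT medians were -1.02 in endothelial cells, -0.81 in fibroblasts and -1.04 in monocyte/macrophage cells, with all 10 members below 0 in each, and 0.19 in neutrophils. The KO medians were 0.29, 0.25, -0.24 and 0.12. These steps use the same ligation 24 h libraries as the step from sham. The heat shock medians were -0.34, -0.41 and -0.44 in WT endothelial, fibroblast and monocyte/macrophage cells, and -0.09, -0.66 and -0.24 in KO. Single heat shock genes ranged from -4.73 to 0.40, -2.11 to 0.13 and -1.83 to 0.11 in these WT classes. In KO the ranges were -2.28 to 0.19, -1.76 to 0.11 and -0.41 to 1.31. The part of the heat shock genes in these steps was not tested.

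The WT difference was not the same in every cluster. In the Pgf endothelial cluster the median was -2.12, with 0 of 9 measured members above 0. In the Aqp1 cluster, with 72 cells at 72 h, it was 0.02, with 4 of 8 above 0 and a summed level of 1540 CPM at 24 h and 1726 at 72 h. Among WT monocyte/macrophage cells the median was -0.45 in the Ccl24 cluster and -0.86 in the cluster led by Gm9733, Plac8 and Chil3. At 72 h, 701 and 534 of the 2041 WT cells of that class were in 2 clusters that held under 50 cells each at WT ligation 24 h, so the class differed in makeup between the times.

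Fos in WT endothelial cells was at 12.8 CPM at 72 h from 20 UMIs [7.81 to 19.8], below all 5 other libraries, and the log2 ratio to 24 h was -2.84 [-3.57 to -2.19]. Egr1 was lower in all 4 WT classes, with log2 ratios of -1.82, -1.92, -2.34 and -1.31 in the order endothelial, fibroblast, monocyte/macrophage and neutrophil. In KO its ratios lay between -0.21 and 0.29. Ier3 was lower in both genotypes in leukocytes, at 737 and 109 CPM in WT monocyte/macrophage cells (log2 ratio -2.76 [-2.82 to -2.69]) and 523 and 168 CPM in KO (-1.64), and in neutrophils with -1.77 and -1.72. Junb and Ier2 were lower in WT monocyte/macrophage cells as well (-1.51 and -1.10), though Ier2 was at -0.89 as a mean over cells.

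Atf3 in neutrophils went the other way, with 238 CPM at 24 h and 525 at 72 h in WT (log2 ratio 1.14 [1.02 to 1.27]) and 205 and 683 in KO (1.74 [1.61 to 1.87]). The median gene of neutrophils was 0.55 and 0.51 higher at 72 h, and relative to it the WT value was 0.59. Part of the class changed its makeup: the cluster led by Tnf, Ccrl2 and Gadd45b held 126 of 1145 WT neutrophils at 24 h and 513 of 949 at 72 h. Within that cluster Atf3 was at 545 and 558 CPM in WT and 587 and 669 CPM in KO. In the cluster led by S100a9 and S100a8 it was at 186 and 371 CPM in WT, and at 156 and 549 CPM in KO. Ier3 was lower at 72 h inside both clusters in WT, at 4139 and 903 CPM in the first and 1904 and 1046 CPM in the second. Over the class as a whole the heat shock median was 0.74 higher in WT and 0.72 higher in KO at 72 h, and its part was not tested.

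In KO, 4 members in fibroblasts were higher at 72 h than at 24 h: Fos (60.0 and 325 CPM, log2 ratio 2.44), Fosb (8 and 70 UMIs, 2.74), Atf3 (12.8 and 84.6 CPM, 2.73) and Zfp36 (56.9 and 221 CPM, with a log2 ratio of 0.78 in thinned cells). The fibroblasts of these libraries came from different clusters. At 24 h, 91 cells were in the Clec3b cluster and 66 in the Cxcl5 cluster, and at 72 h, 853 of 1271 were in a cluster led by Cthrc1, Col1a1 and Col1a2 and 384 in one led by Sfrp1, Lum and Fbln1. Fos was at 227 CPM in the Cthrc1 cluster and 558 in the Sfrp1 cluster.

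Between KO and WT sham hearts 0 of 40 pairs were at least 2-fold higher and 0 lower in KO. Of all genes 1.02% and 0.647% were, so nothing is read from the members' count. The largest differences in size were Fosb and Atf3 in endothelial cells (log2 ratios 0.61 [-0.18 to 1.45] and -0.61 [-1.04 to -0.19]), followed by Ier3 in neutrophils (1102 CPM in WT and 1647 in KO, 0.58 [0.50 to 0.66]), and Jun in endothelial cells (-0.53). The heat shock median at sham was higher in KO, by 0.86 in endothelial cells, 0.41 in fibroblasts and 0.64 in monocyte/macrophage cells, and the members' medians were -0.15, 0.07 and -0.11. Hsph1, a heat shock chaperone, was 2-fold or more higher in all 3 classes where it was measured.

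At ligation 24 h the members were lower in KO. All 10 members had log2 ratios below 0 in endothelial cells, fibroblasts and monocyte/macrophage cells, with medians of -0.31, -0.65 and -0.43, where the medians of all genes were -0.06, -0.11 and -0.12. At least 2-fold lower were 6 of 40 pairs, and 0 were higher, against 1.51% and 1.13% of all genes. In fibroblasts these were Fos (173 CPM in WT and 60.0 in KO, -1.53 [-1.82 to -1.25]), Fosb (58 and 8 UMIs, -2.63 [-3.91 to -1.56]), Egr1 (343 and 160 CPM, -1.10) and Atf3 (28.3 and 12.8 CPM, -1.15). In endothelial cells they were Fosb (46 and 9 UMIs, -1.99) and Egr1 (135 and 48.9 CPM, -1.46 [-1.77 to -1.17]). Without doublet removal 3 pairs passed, and the fibroblast ratios of Fos, Egr1 and Atf3 were -0.77, -0.89 and -0.34. With thinned cells 2 pairs passed. Egr1 in fibroblasts was then at -0.68, and the other calls that did not pass had too few UMIs to be measured.

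The Pgf cluster of endothelial cells held the widest gap, with 3720 CPM of summed members in WT and 2018 in KO and a median of -1.10. There Egr1 was at 373 and 45.7 CPM, Ier3 at 681 and 261 CPM and Fos at 200 and 97.6 CPM. Single barcodes held a large share of the Egr1 and Ier3 UMIs of WT ligation 24 h endothelial cells, as given above. They were not left out within clusters, so their weight in this gap is not known. A monocyte cluster led by Gm9733, Plac8 and Chil3 had 0 of 10 members above 0 (median -0.52), and so had the dendritic cell cluster (-0.50, with 71 cells in WT). In neutrophils the median was -0.10, with Fos higher in KO by 0.31 and Egr1 lower by 0.55 on the log2 scale. The heat shock medians were -0.16, 0.16, -0.24 and 0.18 in the 4 classes. Single heat shock genes ranged from -3.98 to 0.64, -1.68 to 0.51, -1.04 to 0.04 and -0.72 to 1.26, in the same order. Their part in the gap between the genotypes was not tested.

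At ligation 72 h the order turned, and the members were higher in KO outside the neutrophils. At least 2-fold higher were 8 of 39 measured pairs and 0 were lower, where 4.3% and 1.56% of all genes passed. Medians were 0.64 in endothelial cells, 0.55 in fibroblasts, 0.52 in monocyte/macrophage cells and -0.10 in neutrophils. Fosb in endothelial cells was not measured, with 4 UMIs in WT and 16 in KO.

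Fos in endothelial cells was at 12.8 CPM in WT and 224 in KO [199 to 252], a log2 ratio of 4.13 [3.48 to 4.87], and in fibroblasts at 99.1 and 325 CPM (1.71). These KO values were the highest of the 6 libraries in both classes. Zfp36 was at 42.8 and 176 CPM in endothelial cells (2.04) and 43.6 and 221 CPM in fibroblasts (2.34). Atf3 was at 7.76 CPM in WT fibroblasts, from 26 UMIs, and 84.6 in KO, from 252 (3.45 [2.86 to 4.09]), and at 31.3 and 87.9 CPM in endothelial cells (1.49). Junb in endothelial cells (162 and 370 CPM, 1.19) and Egr1 in monocyte/macrophage cells (14.2 and 38.2 CPM, 1.42 [1.21 to 1.64]) completed the 8. Jun and Jund had ratios between -0.36 and 0.21 in all 4 classes.

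**Figure D4:**
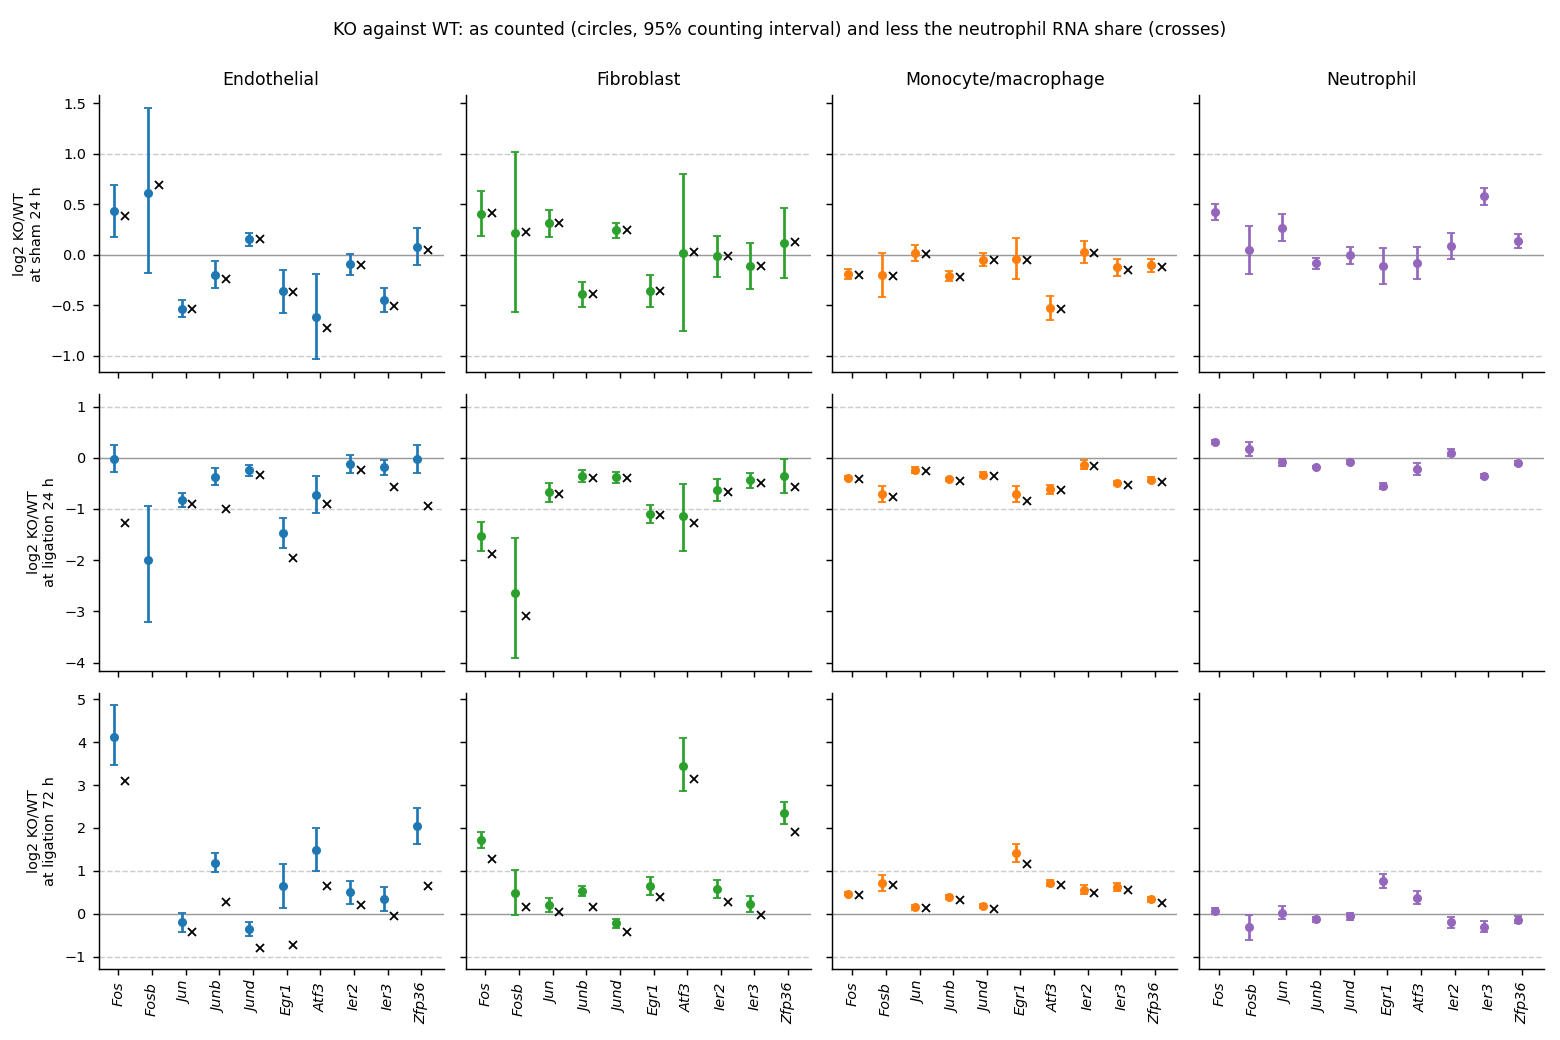
log2 ratio of KO to WT for each gene at sham 24 h, ligation 24 h and ligation 72 h (rows) in the 4 classes (columns); circles with bars are the counted values with 95% counting intervals, crosses the values less the neutrophil RNA share, dashed lines 2-fold. At ligation 24 h all circles lie at or below 0 outside neutrophils, and at 72 h the endothelial Fos circle lies at 4.13 and its cross at 3.10.

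RNA of other cells moved with these values. S100a8 and S100a9 summed to 321, 298 and 114 CPM in WT endothelial cells of sham, ligation 24 h and ligation 72 h, and to 359, 3702 and 3376 CPM in KO. All 13 neutrophil markers were detected in endothelial cells of every library, with a summed level of 221 to 503 CPM in the WT libraries and KO sham and of 4481 and 3938 CPM in KO ligation 24 h and 72 h. Monocyte/macrophage markers summed to 492 CPM in WT and 6145 in KO endothelial cells at 72 h, and to 1602 and 12020 CPM in fibroblasts, with 26 of 26 detected in each. Own markers were lower in the same KO library, at 17264 CPM against 23738 in endothelial cells and 17342 against 28566 in fibroblasts.

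The S100 level of KO ligation 72 h endothelial cells was 5.88% of that of its neutrophils. Neutrophil RNA in that share would carry 153 of the 224 CPM of Fos, 115 of the 176 CPM of Zfp36 and 40.2 of the 87.9 CPM of Atf3. With it subtracted, the KO to WT ratio of Fos was 3.10, Zfp36 0.64, Atf3 0.65 and Junb 0.26, so that 3 of these 4 endothelial calls ended. In fibroblasts the share was 3.77%, and Fos, Atf3 and Zfp36 kept 1.27, 3.14 and 1.91. The part of macrophage RNA was not tested. At ligation 24 h the same subtraction, with a share of 2.39% in KO endothelial cells, gave Fos a ratio of -1.28 in place of -0.02. The heat shock medians of KO against WT at 72 h were -0.27, -0.32, 0.02 and 0.23 in the 4 classes.

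**Figure D5:**
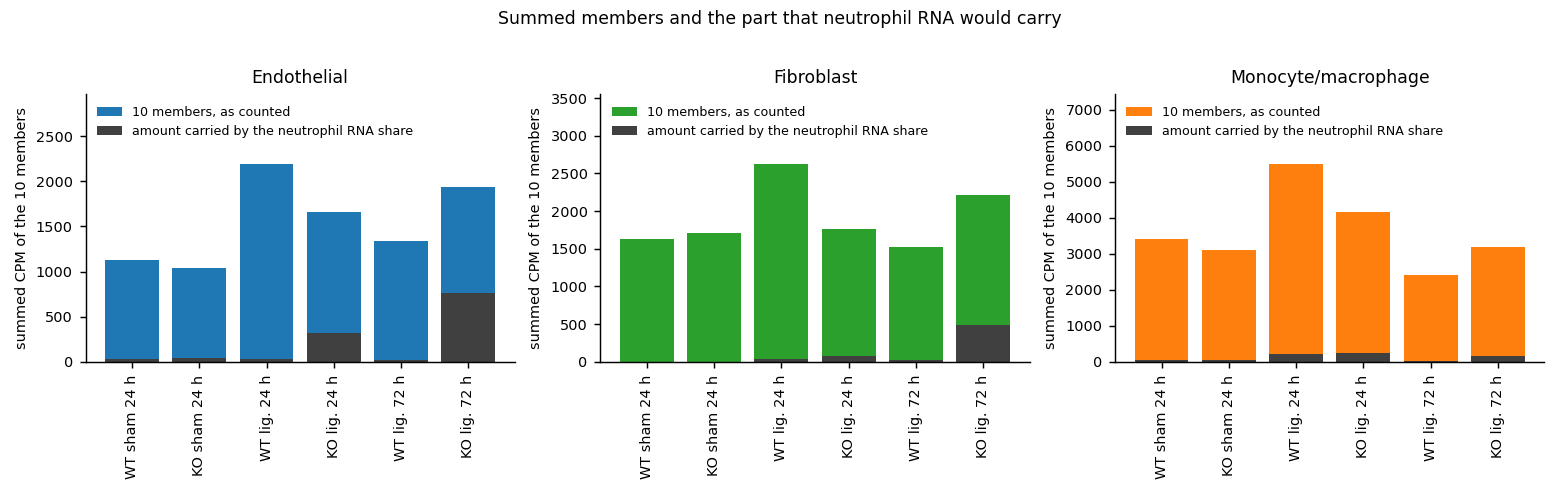
Summed CPM of the 10 genes by library in endothelial cells, fibroblasts and monocyte/macrophage cells (coloured bars from 0) and, in dark bars, the amount that neutrophil RNA would carry, from S100a8 and S100a9. The dark part is tallest in KO ligation 72 h endothelial cells and fibroblasts.

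With only cells above a UMI minimum for their class, which left out 61.3% of the endothelial cells and 89.5% of the fibroblasts of KO ligation 72 h, the endothelial Fos ratio was 3.49, Zfp36 1.79, Atf3 1.14 and Junb 0.84. In fibroblasts Fos, Atf3 and Zfp36 were at 1.46, 3.14 and 2.10. Within clusters that both genotypes shared at 72 h, Atf3 was at 5.19 in WT and 69.0 CPM in KO in the Cthrc1 fibroblasts, and Fos at 10.3 and 230 CPM in the Pgf endothelial cells. After thinning, 1.28% of WT and 21.5% of KO endothelial cells held a Fos UMI (6.23% and 28.5% unthinned). In B cells, a class outside the 4, Fos was at 188 CPM in WT and 623 in KO at 72 h, and neutrophil RNA at the S100 share of KO, 8.85%, would carry 231 CPM of it.

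The other genes of the pathway were read from whole lists. Of 41 other immediate early genes with a row, 37 were measured in WT endothelial cells from sham to ligation 24 h, with 14 at least 2-fold higher and 0 lower, where 3.58% and 2.5% of all genes of the class were. In WT fibroblasts 16 of 37 were higher and 0 lower, against 4.84% and 4.25%. In KO endothelial cells 13 of 36 measured were higher and 0 lower, against 4.26% and 1.65%. In KO fibroblasts 14 of 37 were higher and 3 lower, against 4.22% and 9.79%. The medians of the list over the 4 classes were 0.70, 0.89, 0.47 and 0.20 in WT and 0.64, 0.57, 0.05 and -0.07 in KO. From 24 h to 72 h in WT monocyte/macrophage cells 24 of 37 were lower and 0 higher, against 7.02% and 11.8%. In KO 9 of 37 were lower and 0 higher, against 3.04% and 8.7%. For KO against WT the medians of the list over the 4 classes were -0.23, -0.26, -0.34 and -0.25 at ligation 24 h. At ligation 72 h they were 0.08, 0.44, 0.31 and 0.06. Fosl1, another FOS-family subunit, was higher in the 3 WT classes where it was measured at 24 h, with log2 ratios of 4.67, 3.53 and 2.72, and lower at 72 h in both genotypes. Kinases and ternary complex factors upstream (10 to 12 measured) had 0 genes past 2-fold in any class between ligation 24 h and sham, in either genotype. Of all genes of a class 1.74% to 5.03% were higher and 1.65% to 9.79% lower, so nothing is read from that count. Partners of AP-1 had medians of 0.25, 0.26, 0.07 and -0.13 in WT.

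Messages that ZFP36 is known to destabilise were read beside it. At ligation 24 h against sham, 6 of 7 measured were at least 2-fold higher in WT endothelial cells (median 2.51) and 6 of 6 in KO (3.59). Of all genes of that class 3.58% and 4.26% were. In fibroblasts 7 of 8 were higher in WT (3.34) and 7 of 7 in KO (3.04), against 4.84% and 4.22%. In monocyte/macrophage cells 8 of 9 were higher in WT (2.01, against 2.5% of all genes of the class) and 3 of 9 in KO (0.68, against 1.74%). In at least 3 classes Cxcl2 and Cxcl3 were 2-fold or more higher in both genotypes, Il6, Ccl4, Cxcl1 and Il1b in WT, and Ptgs2 in KO. From 24 h to 72 h Cxcl3, a neutrophil-attracting chemokine, was lower in all 4 classes of either genotype, with medians of -4.31 in WT and -3.23 in KO. At 72 h Il1b and Cxcl2, which signal to leukocytes, and Nr4a1 were higher in KO in 3 of 4 classes. In endothelial cells and fibroblasts these values come from the KO library whose neutrophil and macrophage marker levels are given above, and the part of that RNA in them was not tested. For the KO step from sham to ligation 24 h, S100a8 and S100a9 summed to 359 and 3702 CPM in endothelial cells and 23.4 and 929 CPM in fibroblasts. The part of neutrophil RNA in these messages at 24 h was not tested either.

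Likeness was taken over 35 sums of library and class in 7 classes, as Pearson r of log2 levels after removing each class's mean, among 8074 genes. The genes most like the mean of the members were Cxcl2 (r 0.78), Il1b (0.76), Trem1 (0.74), Dusp1 (0.74), Olr1, Socs3, Arg1 and Plek. The sums share libraries and depth, and neutrophil RNA enters several of them, so the values are a description. Among the members Fos and Zfp36 were closest (0.80), Junb had the highest mean r with the other members (0.55) and Jund the lowest (0.16).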

How the data were processed

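The authors deposited 1 matrix of raw UMI counts for each library. Cell Ranger 6.0.0 and the build mm10 are named in the submitters' processing notes. Filters after Cell Ranger are not given in the sources used here. From these, cells with at least 200 genes and at most 20% mitochondrial UMIs were kept, Scrublet's highest scores were removed at 0.8% per 1000 cells (its automatic threshold marked 0 to 52 cells a library), and scanpy 1.11.5 clustered 2000 variable genes, without the members, other immediate early and heat shock genes, by 30 components, 20 neighbours and Leiden resolution 1. Of 37 clusters, 33 were named by the mean of their highest marker folds, a scoring rule set after seeing the data; 4 stayed unnamed, among them 1107 mostly KO ligation 72 h cells led by macrophage genes. Counts were summed per class and library and compared by the exact conditional interval of 2 Poisson counts, checked on simulated counts. No p-value was computed. Named beyond the members were list genes past 2-fold in 3 or more classes, at most 4 a comparison and direction. For ligation 24 h against sham all such messages that ZFP36 destabilises are named. The members and lists were chosen with earlier results of these data known. Alternatives covered clustering, filters, weighting, depth, scaling and single barcodes. Promoters are from RefSeq.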

Additional observations from a re-analysis of the deposited data

Results flagged for a closer look

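Of the 40 pairs of member and class, all but Fosb in endothelial cells were measured in both genotypes between 24 h and 72 h after ligation. In 4 measured pairs a member moved at least 2-fold one way in KO and at least 2-fold the other way in WT. Of all genes tested, 12.2% were higher and 9.6% lower in WT, and 12.7% higher and 5.74% lower in KO. How many of all genes moved in opposite ways was not counted, so nothing is read from the number of cases. The difference between the genotypes was not tested, since each value rests on 1 library a group. For Fos in endothelial cells the log2 change was 1.31 in KO and -2.84 in WT, a difference of 4.15 [3.45 to 4.85, counting error only]. For Atf3 in endothelial cells it was 1.17 and -1.04, a difference of 2.21, and for Zfp36 in endothelial cells 1.01 and -1.05, a difference of 2.06. For Atf3 in fibroblasts it was 2.73 and -1.87, a difference of 4.59 [3.74 to 5.44]. All 4 rest on the shallow KO ligation 72 h library. With neutrophil RNA subtracted the 3 endothelial KO changes were 0.97, 0.48 and 0.47, and that of Atf3 in fibroblasts 2.35. The WT change of Zfp36 in endothelial cells was -0.02 in thinned cells, and that of Atf3 in fibroblasts -0.53 as a mean over cells.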

How the results depend on the processing

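No paired analysis was possible because each group has 1 library. Of 275 member log2 ratios with the neutrophil RNA share subtracted, an alternative added after seeing the data, 264 kept their sign. Of 277 with the highest barcode of each member left out, also added after seeing the data, 269 did, as did 234 of 251 with thinned cells and 253 to 277 of 277 with other clustering, doublet, weighting or scaling choices. Calls past 2-fold moved by over 1.5 times as follows. KO against WT at sham, 0 higher, became 1 with the mean over cells and 1 with cells thinned to 1000 UMIs. KO against WT at ligation 24 h, 6 lower, became 3 without doublet removal and 2 thinned, where some calls had too few UMIs to be measured. KO against WT at ligation 72 h, 8 higher, became 5 with neutrophil RNA subtracted. Ligation 24 h against sham in KO, 8 higher, became 5 with mitochondrial shares to 10% and 5 with neutrophil RNA subtracted, and its 0 lower became 1 thinned and 1 with a minimum of 10 counts. Ligation 72 h against 24 h in WT, 1 higher, became 0 with the mean over cells and 0 relative to the median gene. In KO its 8 higher became 5 without doublet removal, 4 with a UMI minimum for each class and 5 with neutrophil RNA subtracted. A called pair that was not measured in an alternative, for example with under 50 UMIs once thinned, was judged on the other alternatives. Past 2-fold in every alternative in which they were measured were 3 of 6, 5 of 8, 9 of 14, 4 of 8, 11 of 17 and 6 of 10 called pairs of KO against WT at ligation 24 h and 72 h, of ligation 24 h against sham in WT and KO, and of 72 h against 24 h in WT and KO. With 1 library a group, depth narrows counting error only.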
